A study of Homo sapiens with 10 samples.

Results

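TXNIP (thioredoxin-interacting protein) was followed in HEK293T cells treated with bacterial extracellular vesicles (bEVs). It was chosen by name, as 1 gene of 14884 measured, because its signal was low in several arrays of this series. Its own levels and differences are therefore given as a description, without a test. TXNIP was represented by 2 named probe sets, and the probe set with the higher mean signal was used unless stated otherwise. Total RNA of HEK293T cells, a human embryonic kidney line, was hybridized to 10 Affymetrix Human Gene 2.0 ST arrays. Of these, 8 arrays came from cells given the bEVs of 1 strain each for 6 h (L. acidophilus, L. fermentum, L. paracasei, L. plantarum, L. rhamnosus, L. salivarius, Lc. lactics as the labels spell it, and S. thermophilus), and 2 arrays came from control cells. All cells were grown in DMEM with fetal bovine serum. According to the methods, each bEV was applied at its own maximum tolerated dose, so strain and dose cannot be told apart. RNA from triplicates was combined before hybridization, so each bEV was measured once and has no replicate error. Nothing states whether the 2 controls came from separate cultures, so the spread between them may be technical. A p-value here reflects array-to-array spread alone. For the 8 bEV arrays against the 2 controls, that spread also holds the differences between strains and doses.

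A treatment field of the labels describes a different agent (Pk2) for all arrays, and several titles number the cell line differently, although the cell line field gives HEK293T throughout. Of the markers listed for HEK293T cells, 6 were measured, and VIM, KRT18, EYA1 and LHX1 reached the median signal of all genes (4.63 on the log2 scale), whereas PAX2 (4.47) and KRT8 (4.10) did not. The 4 measured markers of immune, endothelial, hepatic and epithelial cells lay between 2.32 (CD14) and 3.52 (EPCAM). The median signal of an array ranged from 3.29 to 3.33.

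TXNIP belongs to the alpha-arrestins. It binds the reduced form of thioredoxin and thereby holds back this small protein that reduces disulfides in other proteins, and it promotes the removal of glucose transporters from the cell surface. Its transcription follows the glucose supply. MondoA (MLXIP) and ChREBP (MLXIPL) pair with MLX, sense phosphorylated sugars and bind carbohydrate response elements, which consist of paired E-box-like motifs, in the TXNIP promoter. Its closest relative ARRDC4 is a target of the same factors. TXNIP protein is short-lived, since AMPK phosphorylates it and the ubiquitin ligase ITCH marks it for degradation. Arrays measure the mRNA alone.

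The promoters of TXNIP and ARRDC4 are shown because both genes are read out by the same glucose-responsive factors, while their signals behaved differently in these arrays. The gene TXNIP (gene ID 10628) lies on the reverse strand of chromosome 1, from 145992435 to 145996579, and ARRDC4 (gene ID 91947) lies on the forward strand of chromosome 15, from 97960703 to 97973833. The sequences are the 250 bases before each gene start from RefSeq (GRCh38.p14), chr1:145996580-145996829 for TXNIP and chr15:97960453-97960702 for ARRDC4, written on the strand of the gene. Capitals mark matches to CACGNG on either strand, the core of an E-box-like motif.
TXNIP: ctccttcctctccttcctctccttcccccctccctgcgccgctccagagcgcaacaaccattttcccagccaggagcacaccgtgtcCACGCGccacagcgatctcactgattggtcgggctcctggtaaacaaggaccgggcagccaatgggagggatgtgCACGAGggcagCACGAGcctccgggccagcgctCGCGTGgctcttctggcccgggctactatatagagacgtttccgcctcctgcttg
ARRDC4: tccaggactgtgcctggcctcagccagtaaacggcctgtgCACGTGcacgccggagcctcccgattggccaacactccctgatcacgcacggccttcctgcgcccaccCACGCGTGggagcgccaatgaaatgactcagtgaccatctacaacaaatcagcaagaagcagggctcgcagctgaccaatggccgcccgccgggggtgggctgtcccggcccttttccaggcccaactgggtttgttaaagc

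In the TXNIP window, CACGNG matched 4 times, starting 163, 88, 77 and 55 bases before the gene start. At least 1 match was present in 26.5% of the 27305 promoter windows of the same length. The matches at 88 and 77 bases both read CACGAG, which occurred in 5.62% of windows, and are 5 bases apart. That arrangement, CACGNG followed after 5 bases by another CACGNG (or its complement, on either strand), was found in 16 windows (0.0586%). Its letters were chosen with the TXNIP sequence in view, so its rarity is a description. In the ARRDC4 window, CACGNG matched 3 times, at 210, 142 and 140 bases, of which the last 2 overlap. The match at 210 bases reads CACGTG (6.49% of windows), which the TXNIP window lacks, and the spaced pair is absent from the ARRDC4 window. The TXNIP window also holds TATATA 29 bases before the gene start (3.96% of windows) and CCAAT, searched on both strands, 2 times (33% of windows). Of the 16 genes with the spaced pair, 10 were measured. The 9 genes other than TXNIP had mean differences between bEV and control arrays from -0.30 (PNLDC1) to 0.36 (GFPT1) on the log2 scale.

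TXNIP had a log2 signal of 6.15 in both controls, which differed by 0.002. With the bEVs, its log2 signal was 4.73 for L. rhamnosus, 4.78 for L. paracasei, 4.96 for L. fermentum, 4.97 for Lc. lactics, 5.03 for L. plantarum, 5.20 for S. thermophilus, 5.81 for L. salivarius and 5.83 for L. acidophilus. All 8 bEV arrays lay below both controls, a pattern shared by 4.07% of all genes. The 8 bEV arrays had a mean log2 signal of 5.16 ± 0.43 (SD, n = 8 strains) and a median of 5.00. Their mean minus that of the controls was -0.98 log2 units (a 1.98-fold lower signal), and 0.417% of all genes had a mean at least 1.5-fold lower. Since a pool of cells was measured, fewer cells that express a gene and less RNA per cell cannot be told apart.

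**Figure D1:**
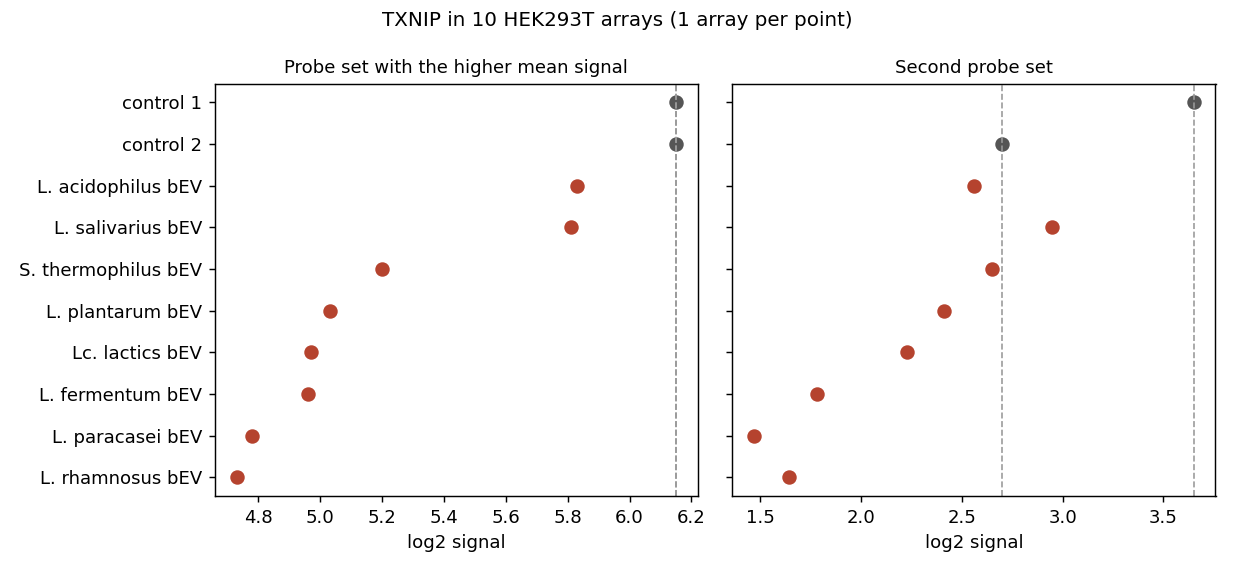
TXNIP log2 signal (horizontal axis) in each of the 10 arrays (rows; 1 point per array, grey for controls and red for bEVs), for the probe set with the higher mean signal on the left and the second probe set on the right. Dashed lines mark the controls, which coincide at 6.15 on the left and lie at 2.70 and 3.65 on the right, where L. salivarius falls between them.

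The size of the difference varied between strains. Relative to the mean of both controls, TXNIP was lower by 2.67-fold with L. rhamnosus bEV, 2.58-fold with L. paracasei, 2.27-fold with both L. fermentum and Lc. lactics, 2.17-fold with L. plantarum and 1.93-fold with S. thermophilus. It was lower by 1.27-fold with L. salivarius and 1.25-fold with L. acidophilus. The 1.5-fold cutoff of the methods (0.58 on the log2 scale) was therefore passed in 6 of 8 bEVs, both against the mean of the controls and against each control alone. S. thermophilus, with a log2 difference of -0.95, was the nearest bEV past this cutoff, and L. salivarius, with -0.34, the nearest short of it. Between 1.63% and 2.51% of all genes were as much as 1.5-fold below the controls' mean in a given bEV (2.18% with L. rhamnosus, 2.01% with L. paracasei, 1.71% with L. fermentum, 1.89% with Lc. lactics, 2.51% with L. plantarum, 1.96% with S. thermophilus, 1.63% with L. salivarius and 1.94% with L. acidophilus). Against each control alone, the share of genes was 1.05%, 0.873%, 0.833%, 0.86%, 1.28%, 0.941%, 0.625% and 0.941% in the same order of bEVs. These shares belong to the contrast that TXNIP was chosen on. The 8 differences share the same 2 controls. Against control 1 and control 2, they were -1.42 and -1.41 with L. rhamnosus, -1.12 and -1.11 with L. plantarum, and equal to 2 decimals with each of the other bEVs.

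Few genes were that low in so many bEVs. Counting TXNIP, 23 genes (0.155%) were at least 1.5-fold below the controls' mean in 6 or more bEVs, and 9 of them reached the median signal. The other 8 of these 9, named here after their values were seen, were DBP, MT2A, SMOC1, TMSB10 and the near-identical small RNA genes SNAR-D, SNAR-F, SNAR-G2 and SNAR-H, whose probes may share targets. Among the 7442 genes that reached the median signal, TXNIP had the lowest difference with L. rhamnosus, L. paracasei and Lc. lactics. It ranked 2 from the lowest with L. fermentum, 5 with L. plantarum and 6 with S. thermophilus. With L. salivarius and L. acidophilus, it ranked 287 and 521. Over the mean of the 8 bEVs, TXNIP had the lowest difference of these 7442 genes and the second lowest of all 14884, where the microRNA gene MIR548I2 was lower. The log2 signal of TXNIP averaged over the 10 arrays was 5.36, at percentile 60.2 of all genes, so its rank was not that of a gene near the lower end of the signal range.

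The order of the strains rests on 1 array each, and the gap between the controls over other genes is given beside it as a description. Over the genes that reached the median signal, the 2 controls differed by a median of 0.14 and by less than 0.51 for 95% of genes. The gap of 0.002 for TXNIP was unusually small, since 0.82% of these genes had a smaller one, and was not used as the error of TXNIP. In the order from L. rhamnosus to L. acidophilus, the step from S. thermophilus to L. salivarius was 0.61. The other 6 steps between neighbours were 0.00 to 0.19, and the 6 lower arrays together spanned 0.47. The value of 0.51 comes from other genes and is no error for TXNIP, which was chosen on these values. No step between neighbours, that of 0.61 included, was therefore tested or read as a difference between strains. The step of 0.61 depended on the probe set. With the mean of both TXNIP probe sets, the log2 difference from the controls was -1.54 for L. paracasei, -1.48 for L. rhamnosus, -1.29 for L. fermentum, -1.06 for Lc. lactics, -0.94 for L. plantarum, -0.74 for S. thermophilus, -0.47 for L. acidophilus and -0.28 for L. salivarius, without a wide step. The distances of L. salivarius and L. acidophilus from the controls (0.34 and 0.32) were under 0.51.

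The second TXNIP probe set had a lower signal (mean 2.41, percentile 13.7 of genes) and a wider gap between controls. Its log2 signal was 3.65 in control 1 and 2.70 in control 2. With the bEVs, it was 1.64 for L. rhamnosus, 1.47 for L. paracasei, 1.78 for L. fermentum, 2.23 for Lc. lactics, 2.41 for L. plantarum, 2.65 for S. thermophilus, 2.95 for L. salivarius and 2.56 for L. acidophilus. It lay below both controls in 7 of 8 bEVs, and L. salivarius fell between them. The mean difference was -0.96 (1.95-fold lower), close to that of the first probe set, and 6 bEVs passed 1.5-fold against the controls' mean. These 6 included L. acidophilus (-0.61) and left out S. thermophilus (-0.52). Against each control alone, 3 bEVs passed, namely L. fermentum, L. paracasei and L. rhamnosus. Across the 10 arrays, the 2 probe sets had a Pearson r of 0.85 and a Spearman rho of 0.93, with r = 0.83 over the 8 bEV arrays. They share the arrays and the transcript, so this is a description of the measurement.

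The number of genes past 1.5-fold in a bEV did not follow the order of TXNIP. From the lowest to the highest TXNIP signal, 691, 694, 515, 519, 767, 561, 438 and 530 genes differed from the controls' mean by 1.5-fold in either direction. L. plantarum, with the most such genes, held the fifth place, and L. acidophilus, where TXNIP was highest, had more than L. fermentum or Lc. lactics.

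Genes of the TXNIP pathways were grouped in 11 lists, of which 141 of 226 genes had a measured, named probe set. With limma over the 8 bEV arrays against the 2 controls, 0 of these 141 genes passed an adjusted p of 0.05, as did 0% of all genes in either direction, while 1682 of all genes (11.3%) had an unadjusted p under 0.05. With limma for each bEV against both controls, the number of calls was also 0 for each bEV. The spread in that fit came from the 2 controls alone, so a lack of calls does not show a lack of change. Over all genes, 1.98% of gene and bEV pairs were at least 1.5-fold above the controls' mean and 1.98% at least 1.5-fold below it. Among the listed genes, the lowest mean difference was -0.49 (PRDX4), against -0.98 for TXNIP.

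**Figure D2:**
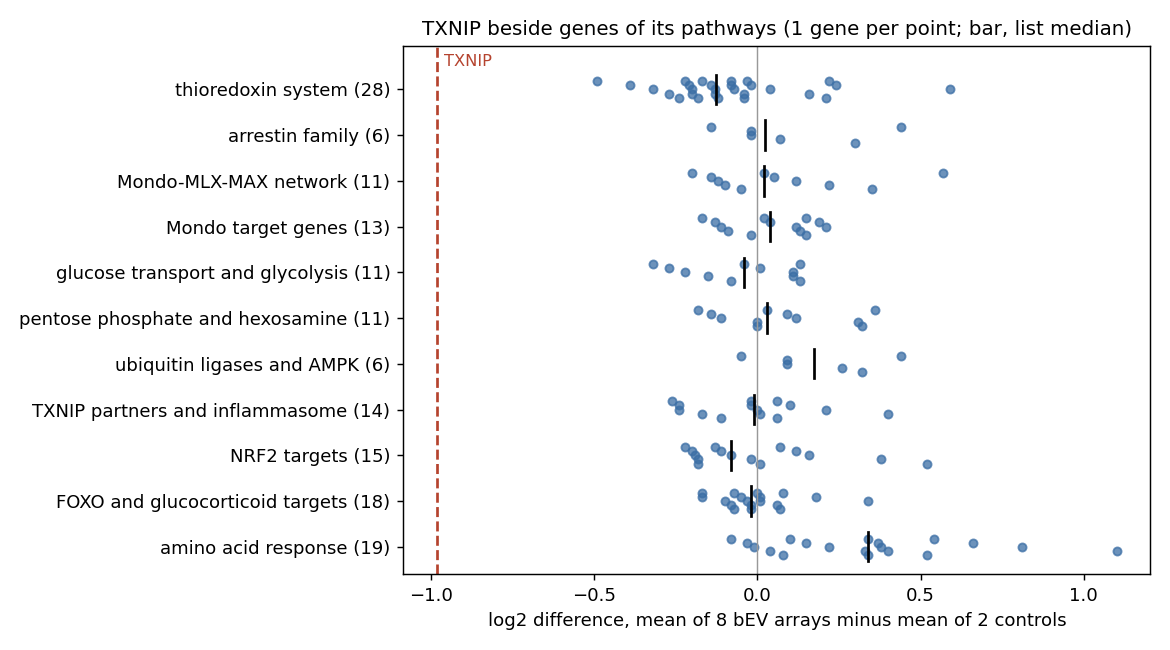
Mean log2 difference between the 8 bEV arrays and the 2 controls (horizontal axis) for each measured gene of 11 lists (rows, number of genes in parentheses; 1 point per gene, black bar for the list median, dashed red line for TXNIP). TXNIP lies at -0.98, left of all 141 listed genes, and the amino acid response list has the highest median, 0.34.

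Thioredoxin, the protein that TXNIP binds, overlapped the controls. The log2 signal of TXN was 10.16 and 9.89 in the controls and ranged from 9.64 to 9.93 (median 9.86) in the bEV arrays, of which 5 lay below both controls. Its mean difference was -0.20 (SE 0.11, limma adjusted p = 0.510). The reductase TXNRD1, which regenerates reduced thioredoxin, had 6.91 and 6.93 in the controls and 6.94 to 7.23 (median 7.08) in the bEV arrays. All 8 lay above both controls (5.11% of all genes did), with a mean difference of 0.16 (SE 0.10, limma adjusted p = 0.569). The mitochondrial pair TXN2 and TXNRD2 had mean differences of -0.08 and -0.04. Of the 28 measured genes of the thioredoxin system, 6 had a positive and 22 a negative mean difference, with a median of -0.12 against 0.00 for all genes.

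The ends of this list were PRDX4, a peroxiredoxin of the endoplasmic reticulum, and MSRA, which repairs oxidized methionine. PRDX4 had 6.79 and 6.58 in the controls and 5.96 to 6.39 (median 6.17) in the bEV arrays, all below both controls, with a mean difference of -0.49 (SE 0.12, limma adjusted p = 0.300). MSRA had 4.28 and 4.13 in the controls and 4.44 to 4.99 (median 4.87) in the bEV arrays, all above both controls, with a mean difference of 0.59 (SE 0.14, limma adjusted p = 0.288). Unlike TXNIP, MSRA was as high with L. salivarius (4.99) as with L. fermentum (4.99). Beside 1.98% of pairs higher and 1.98% lower over all genes, the list had 5 of 224 gene and bEV pairs 1.5-fold higher (2.23%, all of MSRA) and 3 lower (1.34%). These 8 pairs became 16 without control 2, 11 without control 1, 5 against each control and 0 at 2-fold.

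The relatives of TXNIP did not share its pattern. ARRDC4 had 6.61 and 6.52 in the controls. With the bEVs, it had 6.68 for L. rhamnosus, 6.52 for L. paracasei, 6.42 for L. fermentum, 6.67 for Lc. lactics, 6.37 for L. plantarum, 6.38 for S. thermophilus, 6.63 for L. salivarius and 6.64 for L. acidophilus. These values fell on both sides of the controls. The mean difference was -0.02 (SE 0.11, limma adjusted p = 0.965), and the differences of single bEVs ran from -0.20 to 0.12. With L. rhamnosus, where TXNIP was lowest, ARRDC4 had its highest value.

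ARRDC3, an alpha-arrestin that acts on adrenergic receptors and restrains energy expenditure in mice, was higher where TXNIP was lowest. It had 6.25 and 6.12 in the controls and 6.28 to 7.37 (median 6.52) in the bEV arrays, with 7.37 for L. rhamnosus and 6.94 for L. paracasei. All 8 lay above both controls, and these 2 strains passed 1.5-fold. The mean difference was 0.44 (SE 0.22, limma adjusted p = 0.478). ARRDC1, an adaptor for vesicle budding at the plasma membrane, had a mean difference of 0.07, ARRDC2 had -0.02, and ARRDC5 had 0.30 at a mean signal of 2.96. SAG, the arrestin of rod photoreceptors, was the lowest of the 6 measured members (-0.14).

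The transcription factors that read glucose for TXNIP had small differences. MLXIP (MondoA) had 6.68 and 6.87 in the controls and 6.76 to 7.12 (median 7.01) in the bEV arrays, of which 7 lay above both controls, with a mean difference of 0.22 (limma adjusted p = 0.472). MLXIPL (ChREBP) had a mean difference of 0.12 (limma adjusted p = 0.885). Their partner MLX had 8.13 in both controls and 7.78 to 8.10 (median 7.96) in the bEV arrays, all below both controls, with a mean difference of -0.20 (limma adjusted p = 0.505). MLX was lowest with L. plantarum, not with L. rhamnosus. MXD1, a MAX partner that represses MYC targets, had 5.72 and 6.04 in the controls and 6.21 to 6.73 (median 6.50) in the bEV arrays, all above both controls. Its mean difference of 0.57 (SE 0.14, limma adjusted p = 0.288) was the highest of the 11 measured members of the network, and 5 bEVs passed 1.5-fold. That count rested on control 1. The network had 6 of 88 gene and bEV pairs 1.5-fold higher (6.82%, beside 1.98% over all genes) and 0 lower. Of these 6, 1 passed against each control (MXD1 with L. paracasei). Without control 1, the count was 2, namely that pair and MXD3 with L. plantarum, which was lower (6.11 against 6.74 in control 2). MYC had a mean difference of -0.10.

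Other targets of MondoA and ChREBP stayed within 1.5-fold of the controls. Of 104 gene and bEV pairs for the 13 measured target genes, 0 were 1.5-fold higher and 0 lower, with a median mean difference of 0.04. Over all genes, 1.98% of pairs were higher and 1.98% lower. The 104 pairs share genes and controls, so a count of 0 was not read as a difference from these shares. KLF10, a transcription factor, had a mean difference of 0.12, and HK2, the hexokinase that begins glycolysis, had 0.13 (limma adjusted p = 0.700). The ends of the list were both enzymes of fatty acid synthesis. ACACA, acetyl-CoA carboxylase, had 7.13 and 7.10 in the controls and 7.13 to 7.47 (median 7.35) in the bEV arrays, with a mean difference of 0.21 (limma adjusted p = 0.474). ELOVL6, a fatty acid elongase, had a mean difference of -0.17.

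Genes of glucose use were measured in part, since 11 of 41 listed genes of glucose transport and glycolysis had a named probe set, and the transporters SLC2A1 and SLC2A3 and the enzyme PFKFB3 are unnamed here. The median mean difference of these 11 was -0.04, from -0.32 (HK3, at a mean signal of 2.69) to 0.13 (TPI1). In the pentose phosphate and hexosamine list (11 of 14 genes, median 0.03), GFPT1, the first enzyme of hexosamine synthesis and one of the genes with the spaced pair in its promoter, had 7.89 and 7.79 in the controls and 7.89 to 8.32 (median 8.25) in the bEV arrays. Its mean difference was 0.36 (SE 0.12, limma adjusted p = 0.344). TALDO1, the transaldolase, had the lowest of the list, -0.18.

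Among the regulators of TXNIP protein, the 6 measured ubiquitin ligase and AMPK genes had a median mean difference of 0.18. ITCH had 9.05 and 9.01 in the controls and 9.01 to 9.18 (median 9.12) in the bEV arrays, with a mean difference of 0.09 (limma adjusted p = 0.743). Its relative WWP1 had 6.79 and 6.54 in the controls and 6.96 to 7.25 (median 7.14) in the bEV arrays, all above both controls, with a mean difference of 0.44 (SE 0.11, limma adjusted p = 0.288). STK11, the kinase that activates AMPK, had -0.05. NEDD4L, PRKAA1, PRKAA2, NLRP3 and CDKN1B are unnamed here.

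Among partners of TXNIP and inflammasome genes (14 measured, median -0.01), MAP3K5, a stress kinase held by thioredoxin, had a mean difference of -0.02. COPS5, a signalosome subunit, had -0.24 (limma adjusted p = 0.509), and PYCARD, the inflammasome adaptor, had -0.26. DDIT4, an inhibitor of mTORC1 whose protein binds TXNIP, depended on the control. It had 7.19 in control 1 and 6.21 in control 2, and 6.59 to 7.55 (median 7.12) in the bEV arrays, of which 4 lay above both controls. Its mean difference was 0.40 (limma adjusted p = 0.604).

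NRF2 responds to oxidants and drives TXNRD1 and other thioredoxin genes. Its own gene NFE2L2 had 5.31 and 5.43 in the controls and 5.43 to 6.17 (median 5.95) in the bEV arrays, all above both controls, with a mean difference of 0.52 (SE 0.17, limma adjusted p = 0.341), and 4 bEVs passed 1.5-fold. Of the 120 gene and bEV pairs in this list, 4 were 1.5-fold higher (3.33%, beside 1.98% over all genes) and 0 lower. All 4 were of NFE2L2 itself, and the count became 7 without control 2. The 15 measured genes of this list had a median mean difference of -0.08, down to -0.22 (OSGIN1). FOXO factors and the glucocorticoid receptor also act on TXNIP. The list of FOXO1, FOXO3, FOXO4 and targets of these factors and of the receptor had a median of -0.02 over 18 genes. It ran from -0.17 (PCK1, at a mean signal of 2.14) to 0.34 (KLF6, a zinc finger factor).

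The list with the highest median was the amino acid response, in which the factor ATF4 raises amino acid synthesis and transport genes when amino acids run short. Its 19 measured genes had a median mean difference of 0.34. Of their 152 gene and bEV pairs, 36 (23.7%) were 1.5-fold higher and 0 lower, beside 1.98% in each direction over all genes. Of the 19 genes, 12 were 1.5-fold higher in at least 1 bEV, beside 1519 of the 14883 genes other than TXNIP. With limma, 0 of the 19 passed an adjusted p of 0.05 and 5 had an unadjusted p under 0.05. The list was included because of earlier results of these arrays, so its direction is not independent evidence.

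In the order of rising TXNIP signal, the median log2 difference of this list was 0.67, 0.53, 0.32, 0.22, 0.36, 0.37, 0.07 and 0.03. The number of its genes that were 1.5-fold higher was 11, 9, 3, 4, 4, 4, 0 and 1 of 19. Over all genes, 2.46%, 2.65%, 1.75%, 1.59%, 2.65%, 1.81%, 1.32% and 1.62% were 1.5-fold higher in these bEVs. The list was thus highest with L. rhamnosus and L. paracasei, where TXNIP was lowest, and near 0 with L. salivarius and L. acidophilus, where TXNIP was nearest to the controls. Both series of values are differences from the same controls.

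CTH, cystathionine gamma-lyase of cysteine synthesis, had 5.63 and 5.49 in the controls and 5.89 to 7.20 (median 6.72) in the bEV arrays, all above both controls. Its mean difference was 1.10 (SE 0.27, limma adjusted p = 0.288), and 7 bEVs passed 1.5-fold. L. salivarius was the bEV with the lowest CTH. SESN2, a stress-induced inhibitor of mTORC1 named after its values were seen, had 6.93 and 6.98 in the controls. With the bEVs, it had 8.46 for L. rhamnosus, 8.32 for L. paracasei, 7.71 for L. fermentum, 7.97 for Lc. lactics, 7.62 for L. plantarum, 7.64 for S. thermophilus, 7.26 for L. salivarius and 7.15 for L. acidophilus. The 6 bEVs past 1.5-fold for SESN2 were those in which TXNIP was 1.5-fold lower by its brighter probe set. By the second TXNIP probe set the match was not exact, since L. acidophilus (-0.61) passed and S. thermophilus (-0.52) did not. PSPH, a serine synthesis enzyme, was the lowest of the list (-0.08).

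The genes whose log2 signals were most like that of TXNIP over the 10 arrays were sought among the 7441 others that reached the median signal. All points share the arrays and the control cells, and the 10 arrays fall into 6 with lower TXNIP and 4 with higher TXNIP, so a pooled r mainly tells these apart and carries no p. An r of 0.9 or higher was found for 24 genes (0.323%) and one of -0.9 or lower for 89 genes (1.2%). The opposite pattern was thus more frequent than the same one.

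The 10 genes with the lowest r ran from -0.99 to -0.96. EPRS1, the glutamyl-prolyl-tRNA synthetase, came first with r = -0.99 (rho = -0.98). It had 9.62 and 9.65 in the controls and, in the order of rising TXNIP signal, 10.08, 10.11, 10.04, 10.04, 10.01, 9.92, 9.75 and 9.72 in the bEV arrays. EPRS1 had r = -0.99 over the 8 bEV arrays alone and r = -0.94 within the 6 arrays with lower TXNIP. Its differences were small, with a mean of 0.33 and no bEV past 1.5-fold. The zinc finger gene ZNF236 followed with r = -0.98 (-0.96 within the 6 arrays), with 5.89 and 5.98 in the controls and 6.47 with L. rhamnosus. VEGFA, the vascular endothelial growth factor, had r = -0.97 (-0.84 within the 6 arrays) and a mean difference of 0.51. The others were SUCO, RTTN (a centriole protein), PITRM1 (a mitochondrial peptidase), CFAP97, CCDC186, KDM7A (a histone demethylase) and PRRC1. All 10 lay above both controls in all 8 bEVs (5.11% of all genes did), with mean differences of 0.24 to 0.60. Because TXNIP was highest in the controls, a choice by low r favours genes that are lowest there. Within the 6 arrays, the r of these 10 genes ran from -0.96 to -0.57.

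The 10 genes with the highest r ran from 0.93 to 0.98. PNRC1, a nuclear receptor coactivator, had 7.64 in both controls and 7.16 to 7.55 in the bEV arrays, with r = 0.98, which was 0.64 within the 6 arrays with lower TXNIP. PHF5A, a subunit of the splicing factor SF3B, had 7.85 and 7.90 in the controls and 7.40 to 7.75 in the bEV arrays, with r = 0.98 (0.91 within the 6 arrays). RRP36, which acts in ribosomal RNA processing, had r = 0.97 (0.95 within the 6 arrays). The others were CDC20 (an activator of the anaphase-promoting complex), ZWINT (a kinetochore protein), TXNL1, ZNF207, GINS4 (of the replicative helicase), SRSF6 (a splicing factor) and ERF (a transcriptional repressor). TXNL1, a thioredoxin-like protein bound to the proteasome, was the 1 gene of the thioredoxin list among them, with 7.46 and 7.45 in the controls and 7.04 to 7.40 in the bEV arrays. Of the 10 genes, 6 lay below both controls in all 8 bEVs (4.07% of all genes did), which a choice by high r likewise favours. The mean differences of the 10 genes ran from -0.45 to -0.19, all smaller in size than that of TXNIP.

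**Figure D3:**
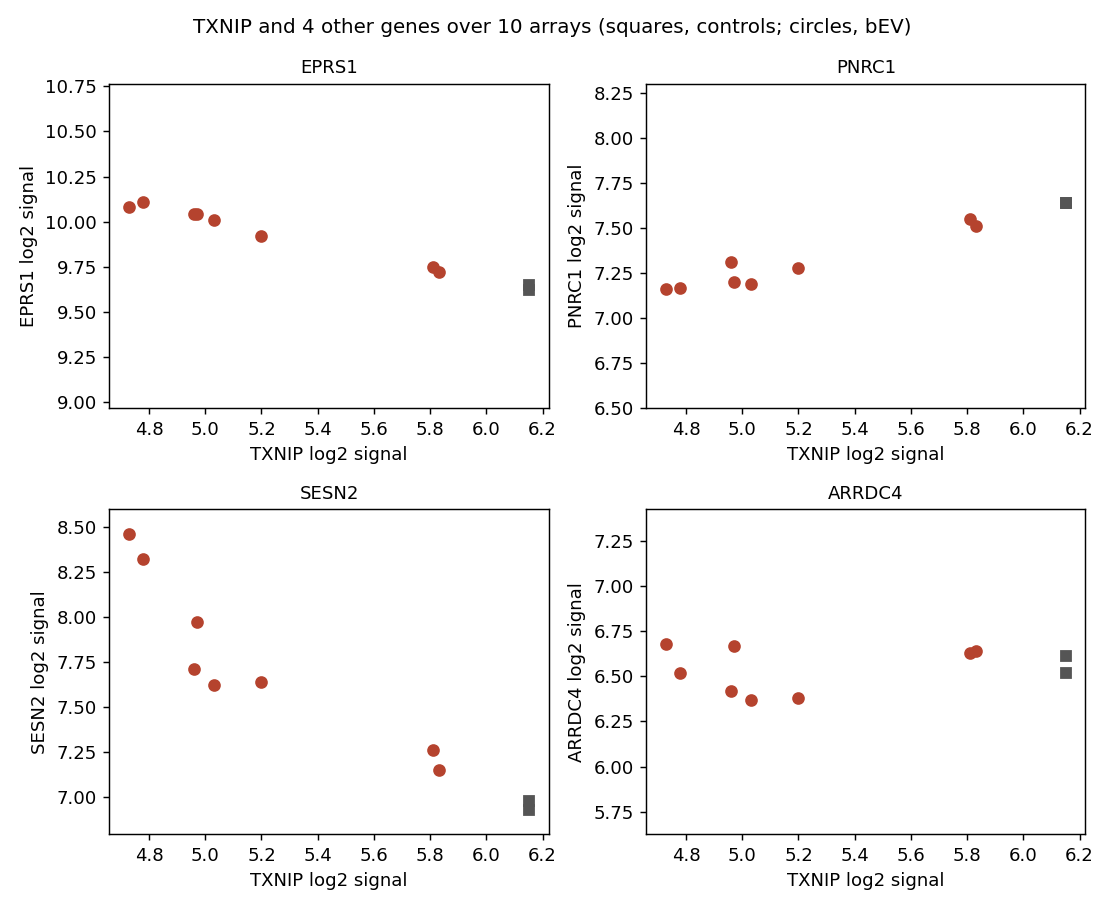
Log2 signal of EPRS1, PNRC1, SESN2 and ARRDC4 (vertical axes, of equal span) against the log2 signal of TXNIP (horizontal axes) over the 10 arrays (squares for controls, circles for bEVs). At higher TXNIP signal, EPRS1 and SESN2 lie lower and PNRC1 lies higher (r = -0.99, -0.94 and 0.98 over the 10 points), while ARRDC4 shows no such order (r = 0.20).

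The controls were the 2 arrays farthest from the median TXNIP signal. Without them, the 10 genes with the lowest r had values of -0.99 to -0.91. The 10 with the highest r had values of 0.87 to 0.96. These genes were chosen on an r that includes the same 8 bEV arrays, so such values partly follow from the choice. Of the 20 genes, 5 were still among the most alike over the 8 bEV arrays alone. Of the listed pathway genes, SESN2 and ATF4 (r = -0.94 each), CTH and ACACA (r = -0.93 each), PSAT1 (r = -0.92) and NFE2L2 (r = -0.91) also had an r below -0.9, and were picked out after their values were seen. Within the 6 arrays with lower TXNIP, r was -0.91 for SESN2, -0.76 for ATF4, -0.58 for NFE2L2 and -0.57 for ACACA, but -0.21 for CTH and 0.55 for PSAT1, a serine synthesis enzyme.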

How the data were processed

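Per the labels and the methods, total RNA was hybridized to Affymetrix Human Gene 2.0 ST arrays and scanned with the GeneChip Command Console Software. The submitters' processing notes name MAS5. Neither the background correction nor the normalization and summarization is stated in the sources used here. The authors deposited log2 signals of 53617 probe sets, used here as deposited since the quartiles of the 10 arrays were similar (lower 2.24 to 2.27, upper 5.24 to 5.36). Gene symbols were known for 16098 probe sets (30.0%) and updated by Entrez ID to GRCh38.p14; 37519 are unnamed here. A gene was represented by its brightest probe set over the 10 arrays (779 genes had more than 1), giving 14884 genes.

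Differences are the log2 signal of a bEV array less the controls' mean. The cutoff of 1.5-fold follows the methods and carries no test. limma (version 3.58.1, R 4.3.3) compared the 8 bEV arrays with the 2 controls, and each bEV with both controls, which assumes that a lone bEV array varies as the controls do. The comparison of 8 with 2 arrays treats the 8 strains as replicates of 1 group. P-values were adjusted by Benjamini-Hochberg over all genes. The fits were tested on simulated data. The number of arrays limits the precision. Named genes were TXNIP, fixed genes of its pathways (19 of 27 measured), the members with the highest and lowest mean difference of each list, and the 10 genes with the highest and the 10 with the lowest Pearson r with TXNIP. Members and lists were chosen with earlier results of these data known. Not every gene of the rule is given with its values. Promoter windows were RefSeq sequences, 1 per gene, searched on both strands. Alternatives were quantile normalization, centring of arrays, a floor at the 10th percentile, other summaries of probe sets, limma with trend and robust variance, other fold cutoffs, Spearman's rho and leaving out arrays. The analyses within the 6 arrays with lower TXNIP, and of the lists without each control, were chosen after seeing the data. Python 3.11.15 with numpy 2.4.6, pandas 2.3.3 and scipy 1.17.1 was used.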

Additional observations from a re-analysis of the deposited data

How the results depend on the processing

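The mean log2 difference of TXNIP, -0.98, was -1.03 after quantile normalization, -0.99 with arrays centred on their medians, -0.98 with a floor on low signals, -0.97 with the mean of its 2 probe sets, and -1.08 to -0.92 with 1 array left out at a time. For single bEVs, 48 of 48 values under these alternatives were negative. The floor and the removal of a control left these values almost unchanged, so they add little. The second probe set alone was not among the alternatives, and against control 2 it was higher with L. salivarius, by 0.26. With the mean of both probe sets, S. thermophilus had -0.74, L. acidophilus -0.47 and L. salivarius -0.28. In limma, the 8 bEV arrays against the 2 controls gave 0 genes, 4 over all probe sets, and 0 to 2 with 1 array left out, where the 2 came without control 2. Each bEV against both controls gave 0 genes, and 6 with trend and robust variance, all with L. rhamnosus. Without 1 control, that comparison leaves no residual degrees of freedom, so it was not run. Of the listed genes, 66 gene and bEV pairs passed 1.5-fold against the controls' mean, 16 passed 2-fold, and 78 and 79 passed 1.5-fold without control 1 and without control 2, with shifts in single lists (8 to 16 pairs for the thioredoxin system without control 2, 6 to 2 for the Mondo-MLX-MAX network without control 1).

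The 20 genes most like TXNIP depended on the processing. Of them, 17 kept their place after quantile normalization, 4 when the probe sets of a gene were averaged, 4 with Spearman's rho, 5 over the 8 bEV arrays alone (the arrays left without the 2 farthest, 5), 0 within the 6 arrays with lower TXNIP, and 10 to 18 with 1 array left out. The 10 came without L. acidophilus and without control 2, and 13 without control 1. The cause was not tested. No paired analysis was possible because each bEV has 1 array and the controls alone carry replicate numbers. With 1 array per bEV, a difference between strains has no error of its own.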
